A study of Homo sapiens with 2 samples.

Results

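The cells described here carried more than 20% of their unique molecular identifiers (UMIs, 1 per captured RNA molecule) on the 13 protein-coding genes of the mitochondrial genome, which have symbols starting with MT-. The rule took barcodes of 1000 or more UMIs and 500 or more genes whose MT- share was over 20%, and there were 789 of them among 5706 barcodes. Of these, 519 of 3132 barcodes came from the squashed library and 270 of 2574 from the control library. They were set against the 1778 squashed and 1775 control cells with 1% to 20% MT- UMIs, and all nuclear-encoded levels were scaled without the MT- genes.

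Both libraries were single-cell RNA libraries of A549, a widely used line of epithelial cells from a human lung adenocarcinoma, made with a 10x Genomics version 3.1 kit. The squashed library came from cells that had been confined under polydimethylsiloxane (PDMS) micropillars, and the control library from cells in ordinary 2D culture. Cells of both libraries carried a chromosome reporter and were sorted alive for its loss after 48 h of recovery, a state that the study puts at about 1 cell in 500. Both libraries therefore describe a selected minority, and with 1 library per treatment no replicate error exists between treatments.

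Mitochondria transcribe their own small genome inside the organelle, so their messenger RNAs, which encode subunits of the respiratory chain and of ATP synthase, are enclosed by 2 membranes and are separate from the cytosol. Most nuclear-encoded messenger RNAs lie free in the cytosol. Those for membrane and secreted proteins are translated on the endoplasmic reticulum (ER), and some long non-coding RNAs, among them MALAT1 of nuclear speckles and NEAT1 of paraspeckles, stay in the nucleus. A high MT- share is widely used in single-cell work as a sign of a stressed or leaky cell, although metabolically active cells can have one as well.

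The MT- share chose the cells, so the MT- values are a description without a test. Members had a median MT- share of 44.8% in the squashed library and 44.1% in the control library, and the 1% to 20% cells had medians of 7.74% and 6.29%. Members held both more mitochondrial and less other RNA. Their median MT- count was 2062 UMIs in the squashed library and 3287 in the control library, against 649 and 734 UMIs in the 1% to 20% cells. Their median count outside the MT- genes was 1898 and 3008 UMIs, against 9426 and 12206 UMIs. The plot of the MT- share and the remaining UMIs of each cell shows a broad band of shallow cells that extends to an MT- share of 92.3% in the squashed library and 87.0% in the control library.

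**Figure D1:**
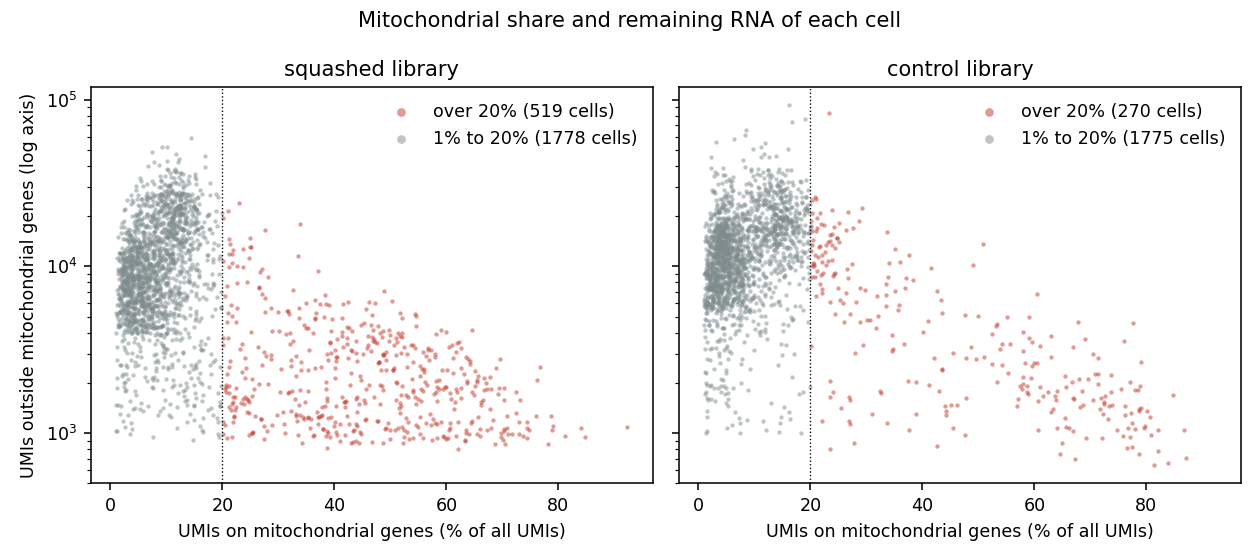
Each point is 1 cell of the squashed (left) or control (right) library, placed by its share of UMIs on mitochondrial genes (%) and its UMIs outside those genes (log axis); the dotted line is the 20% threshold. Cells over 20% (red) had a median of 1898 UMIs outside mitochondrial genes in the squashed library and 3008 in the control library, against 9426 and 12206 in cells of 1% to 20% (grey).

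The 2 libraries differed at the threshold. Squashed cells just inside it (20% to 25%, 72 cells) had a median of 2390 UMIs outside the MT- genes, and squashed cells just outside it (15% to 20%, 143 cells) had 9006. Control cells had 11681 UMIs just inside (63 cells) and 16784 just outside (214 cells). The 90 control members between 20% and 30% gave 1060726 of the 1592199 UMIs of the control member sum, and the 108 squashed members in that range gave 525005 of 1496072. Summed values of the control members therefore rest largely on cells near the threshold.

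Among barcodes that passed the depth filter, the members' share was 21.2% in the squashed library (519 of 2449, exact 95% interval 19.6% to 22.9%) and 12.4% in the control library (270 of 2176, 11.1% to 13.9%). These intervals cover counting error only, and the difference compares 2 libraries rather than 2 treatments. The order was the same at thresholds of 15%, 25% and 30%. Barcodes below the depth filter also often passed 20%, with 437 of 683 in the squashed and 236 of 398 in the control library. Without a depth filter the share was 30.5% in the squashed library and 19.7% in the control library.

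The marker genes named for these cells were high, as the rule requires. MT-CO1, a core subunit of cytochrome c oxidase, took 7.31% of all UMIs of squashed members and 1.40% of those of squashed 1% to 20% cells, and 4.20% against 0.974% in the control library. MT-ND4, a subunit of complex I, took 3.08% against 0.717% in the squashed library and 3.04% against 0.841% in the control library. Among MT- UMIs alone, the mixture of transcripts was similar but not equal in members and in the rest of the same library. MT-CO3 led with 18.5% in squashed members and 17.0% in squashed 1% to 20% cells, and with 24.7% and 22.5% in the control library. MT-CO1 made up 16.5% and 15.3% in the squashed library and 10.7% and 10.6% in the control library. For MT-ND3, a subunit of complex I, the libraries lay further apart than the classes, as it made up 9.90% of MT- UMIs in squashed members and 4.84% in control members, against 10.4% and 5.19% in the 1% to 20% cells. MT-ND4 made up less of the MT- UMIs in members, with 6.94% and 7.82% in the squashed library and 7.76% and 9.175% in the control library. All other MT-ND genes except MT-ND6 were also lower in members of both libraries, such as MT-ND2 with 3.16% and 3.77%, and 3.63% and 4.54%. MT-ND6 was higher in squashed members (0.351% and 0.306%) and lower in control members (0.156% and 0.190%). MT-ATP6 was higher in members, with 13.0% and 12.1%, and 15.9% and 13.8%.

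Keratins of the epithelial line were present in members, some at lower levels than in the other cells. Of 7 tested genes of an epithelial list 2 were higher and 3 lower (29.3% and 29% of all genes tested), among them the keratins KRT80 (log2 -1.24) and KRT81 (log2 -0.92). KRT8, a keratin of simple epithelia, stood at 1423 TMM-scaled CPM in squashed members and 1610 in squashed 1% to 20% cells, and at 1094 and 968 in the control library (edgeR quasi-likelihood test, log2 ratio -0.00, adjusted p = 0.998). TMM-scaled CPM are counts per 1e6 UMIs outside the MT- genes, with edgeR's trimmed-mean factors. KRT18, its partner, had 550 and 771 in the squashed library and 2475 and 2066 in the control library (log2 -0.11, adjusted p = 0.695). Without the TMM factors KRT8 had 1676 and 1285 CPM, and KRT18 648 and 615, in squashed members and squashed 1% to 20% cells. The order of these keratins in that library therefore depended on the scaling. Of the 8 markers fixed for the line, AKR1B10, AKR1C1 and AKR1C2 had 2532, 815 and 1886 CPM without TMM factors in squashed members. They had 2692, 634 and 1800 in squashed 1% to 20% cells. In the control library members had 2996, 1067 and 2761, and the other cells 3383, 623 and 2232. TMM scaling would lower members relative to the other cells, with factors of 1.18 and 0.798 in the squashed and 1.19 and 0.895 in the control library. KRT19, CDH1 and EPCAM were low in both classes, at 6.02, 6.68 and 0 CPM in squashed members. Control members had 3.14, 19.5 and 0.628 CPM. Genes that mark other cell types gave few UMIs. The 6 fibroblast markers summed to 27.4 and 7.33 CPM in squashed members and squashed 1% to 20% cells and to 17.0 and 8.89 CPM in the control library, with COL1A2 and DCN at 0 in members of both libraries. The 6 immune markers summed to 24.7 and 25.7 CPM in the same order in the squashed library and to 24.5 and 17.0 CPM in the control library, mostly from CD68 and CD14, and PTPRC, CD3E and CSF1R were at 0. The 5 endothelial markers summed to 16.7 and 11.2 CPM and to 52.8 and 49.0 CPM, nearly all from EGFL7, and erythroid globins were at 0 in members. Of these markers of other cell types only 1 fibroblast gene (COL1A1, higher in members), 1 immune gene (CD68, lower) and 1 endothelial gene (EGFL7, not called) were abundant enough to test.

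To find how the nuclear-encoded RNA of members differed, UMIs were summed over each class in each library, and the 4 sums were fitted with the library as a block. Of 7751 genes tested, 2270 (29.3%) were higher and 2250 (29%) were lower in members at an adjusted p under 0.05 in edgeR, 58.3% in all. The ratio had the same sign in both libraries for 85.8% of the genes. Among called genes, 1101 were at least 2-fold higher and 682 at least 2-fold lower, and 148 were at least 4-fold higher against 12 at least 4-fold lower. The fit leaves 1 residual degree of freedom before edgeR shares information across genes, and its spread is that between the 2 libraries, which also differ in treatment. Scaling by total UMIs without the TMM factors raised the median of all genes by 0.48 on the log2 scale and gave 3660 higher (47.2%) and 849 lower (11%) calls, so that 81.2% of the calls were higher in place of 50.2%. Depth moved with the class throughout, and among cells of 2000 to 8000 UMIs outside the MT- genes in both classes, 2621 of 7706 genes were higher and 2399 lower. That range did not equalize depth. It held 798017 UMIs in 219 squashed members and 3517173 in 649 other squashed cells. In the control library it held 396504 in 95 members and 2390735 in 397 other cells. With each cell thinned to 1000 UMIs, 1991 of 7806 genes were higher and 1975 lower.

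Nuclear non-coding RNAs rose furthest. Of 15 tested members of a list of long non-coding RNAs, 14 rose and none fell, with a median log2 ratio of 2.09 against 0.01 over all genes tested. NEAT1 (chromosome 11, 65422774 to 65445540 on GRCh38), the scaffold RNA of paraspeckles, had 10524 TMM-scaled CPM in squashed members and 1296 in squashed 1% to 20% cells, and 12781 and 2023 in the control library (log2 2.84, adjusted p = 1.6e-22). MALAT1, its neighbour at 65497640 to 65508073, had 67736 and 14328 in the squashed library and 46853 and 12289 in the control library (log2 2.09, adjusted p = 1.34e-09). Both RNAs were higher in members than in the other cells of either library. FTX, a long non-coding RNA of the X-inactivation centre, rose by 2.76 on the log2 scale, the imprinted MEG3 by 2.58, KCNQ1OT1 by 2.41 and the p53-responsive PURPL by 2.36. KCNQ1OT1 lies antisense to KCNQ1. No source used here gives the strand setting of the counting, and whether their reads were kept apart was not checked. Across all genes annotated as lncRNA in GENCODE, 141 of 245 were higher and 46 lower (median 0.95), against 2119 and 2202 of 7492 protein-coding genes (median -0.00).

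Messenger RNAs of membrane, secreted and lysosomal proteins, which are translated on the ER, formed the second group that rose. Of 41 tested genes on that list 33 were higher and 1 was lower, with a median log2 ratio of 1.01. LRP1, a large endocytic receptor, had 71.0 TMM-scaled CPM in squashed members and 10.3 in squashed 1% to 20% cells, and 47.5 and 12.6 in the control library (log2 2.35, adjusted p = 3.65e-30). AGRN, the basement membrane proteoglycan agrin, had 80.0 and 13.3 in the squashed and 43.3 and 12.04 in the control library (log2 2.24). HSPG2, the related proteoglycan perlecan, had 109 and 18.8 in the squashed and 67.0 and 19.1 in the control library (log2 2.18). These genes were named for the largest ratios on the list. Each was higher in members of both libraries, and 85.8% of all genes tested had the same sign in both libraries. Fibronectin (FN1) rose by 2.14 and the laminin chain LAMC1 by 1.13. Outside the list, COL7A1, the collagen of anchoring fibrils, rose by 2.40, the microfibril protein FBN1 by 2.25 and the laminin chain LAMA5 by 2.24. Not every member passed the test: CD44, a hyaluronan receptor, had a log2 ratio of 0.16 (adjusted p = 0.514).

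**Figure D2:**
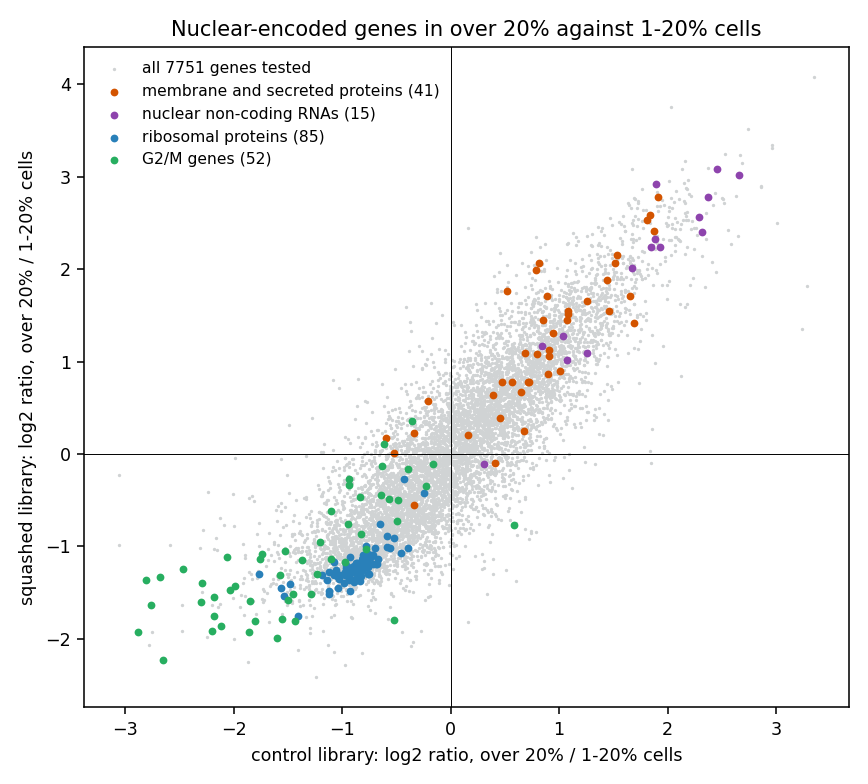
Each point is 1 nuclear-encoded gene, placed by its log2 ratio of over 20% against 1% to 20% cells in the control (x axis) and the squashed (y axis) library; colours mark 4 gene lists with the number of tested members. Nuclear non-coding RNAs and membrane and secreted proteins lie mainly at the upper right, and ribosomal proteins and G2/M genes mainly at the lower left; 85.8% of the 7751 genes have the same sign in both libraries.

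Immediate early genes, which are transcribed within minutes of a stimulus and have short-lived messenger RNAs, rose in 16 of 18 tested cases and fell in none (median 1.06). NR4A1, a nuclear receptor, had 130.0 TMM-scaled CPM in squashed members and 23.7 in squashed 1% to 20% cells, and 105 and 30.7 in the control library (log2 2.11, adjusted p = 1.73e-26). EGR1, a zinc finger transcription factor, rose by 2.05 and FOSB, an AP-1 subunit, by 2.03. HES1, a repressor in the Notch pathway that is on none of the lists, rose by 2.21. YAP/TEAD target genes were higher in 8 of 11 cases and lower in none (median 0.68), led by CCN2 at 1.62. That value came mainly from the squashed library, in which the log2 ratio of CCN2 was 2.44, against 0.16 in the control library.

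Smaller and mixed shifts were seen in the stress lists, in which the counts stand beside 29.3% higher and 29% lower among all genes tested. Of 17 p53 target genes 8 were higher and 1 lower (median 0.41), with MDM2, the ubiquitin ligase of p53, up by 1.25, whereas CDKN1A, the cell cycle inhibitor p21, had a log2 ratio of 0.15 (adjusted p = 0.525). Unfolded protein response genes were higher in 8 of 18 cases (median 0.35). Interferon and nucleic acid sensing genes were higher in 7 of 19 (median 0.38), led by the transcription factor IRF1 at 2.24 and followed by MAVS, the mitochondrial adaptor of RNA sensors, at 1.24. Integrated stress response genes split, with 6 higher and 9 lower of 21. PPP1R15A, which promotes dephosphorylation of eIF2 alpha, rose by 1.50 and the stress factor DDIT3 by 0.89. The serine synthesis enzyme PSAT1 fell by 1.19, the mitochondrial folate enzyme MTHFD2 by 1.26 and ATF4 itself by 0.69. NRF2 target genes also split, with 4 higher (among them the exporter ABCC2 and the cystine carrier SLC7A11) and 10 lower of 22. The medians of the integrated stress response list (-0.33) and of the NRF2 list (-0.34) turned to 0.15 each under scaling by total UMIs, and p53 targets, unfolded protein response and interferon genes then had 14 higher calls each. Of all genes tested, 47.2% were higher under that scaling. With DESeq2 the p53, unfolded protein response and interferon lists had 4, 2 and 4 higher calls, beside 1494 of all 7751 genes. The medians of these 3 lists were -0.20, -0.16 and -0.40 among members with at least 5% MALAT1 and NEAT1, so their direction was not stable.

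RNAs of abundant soluble proteins made up several of the lists that fell. Cytosolic ribosomal protein genes were lower in 83 of 85 cases and higher in none, with a median log2 ratio of -1.05. RPL31, a protein of the large subunit, had 851 TMM-scaled CPM in squashed members and 2103 in squashed 1% to 20% cells, and 398 and 1352 in the control library (log2 -1.53, adjusted p = 2.38e-10). Several of these genes have processed pseudogenes, so single values are less certain than the group. Of 26 genes for soluble cytosolic proteins 25 fell (median -1.03). PPIA, the prolyl isomerase cyclophilin A, had 731 and 2011 in the squashed and 585 and 1445 in the control library (log2 -1.38), and the actin-binding TAGLN2 fell by 1.51. Proteasome subunits fell in 29 of 31 cases, translation factors in 18 of 24 and cytosolic and mitochondrial heat shock chaperones in 17 of 20, none with a member that rose. Among glycolysis genes 11 of 18 fell and 2 rose, with TPI1, triosephosphate isomerase, down by 1.34 and GAPDH down by 1.21. Under scaling by total UMIs 76 of the 85 ribosomal protein genes were lower, but only 13 proteasome, 9 translation factor, 10 heat shock and 6 glycolysis genes, with 1, 2, 1 and 4 higher. Of all genes tested, 11% were lower and 47.2% higher under that scaling.

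Nuclear-encoded mitochondrial proteins did not follow the MT- genes. Their messages are made in the nucleus and translated mainly in the cytosol. Of 37 nuclear complex I genes 33 fell and none rose (median -0.91), and of 39 genes of complexes II to V 37 fell (median -0.99). NDUFA11, an accessory subunit of complex I, had 183 TMM-scaled CPM in squashed members and 456 in squashed 1% to 20% cells, and 170.5 and 349 in the control library (log2 -1.17, adjusted p = 1.06e-07). CYCS, cytochrome c, had 250.4 and 691 in the squashed and 204 and 680 in the control library (log2 -1.60). Each lay below the other cells of its library, and each was named for the largest fall on its list. Mitochondrial ribosomal proteins fell in 69 of 75 cases (median -0.91), import components in 16 of 20 (median -0.88) and enzymes of the citric acid cycle in 11 of 17 (median -0.54), with none higher. Under scaling by total UMIs the lower calls were 20 for complex I, 24 for complexes II to V, 36 for mitochondrial ribosomal proteins, 10 for import and 1 for the citric acid cycle, and these medians stayed negative. Among all genes tested 11% were lower under that scaling.

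Genes that act on mitochondrial DNA or on mitochondrial turnover moved less, and their counts stand beside 29.3% higher and 29% lower among all genes tested. Of 24 genes for replication, transcription and RNA handling in mitochondria 2 rose and 8 fell (median -0.18), and of 19 mitophagy and dynamics genes 6 fell and none rose (median -0.25). Of 17 mitochondrial chaperones and proteases 2 rose and 7 fell (median -0.16). These 3 medians turned positive, to 0.31, 0.24 and 0.32, under scaling by total UMIs. SPG7, a protease of the inner mitochondrial membrane, rose by 1.89, against a fall of 1.27 for the mitochondrial chaperonin HSPE1. The 4 tested nuclear copies of mitochondrial ribosomal RNA rose: MTRNR2L12 had 2298 TMM-scaled CPM in squashed members and 478 in squashed 1% to 20% cells, and 1281 and 499 in the control library (log2 1.81), and MTRNR2L8 rose by 1.49, although its log2 ratio was -0.09 among cells of 2000 to 8000 UMIs outside the MT- genes. Their annotated loci are 95.1% and 93.0% identical to mitochondrial 16S ribosomal RNA in GRCh38, with 51 mismatches in 1036 and 90 in 1290 aligned bases. How many reads of the mitochondrial RNA were counted on these copies was not tested.

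Mitotic genes led the decreases among genes of at least 50 CPM. Of 52 tested G2/M genes 45 were lower and none higher (median -1.41), and of 34 G1/S genes 19 were lower and 1 higher (median -0.66). AURKA, a kinase of the spindle poles (chromosome 20, 56369389 to 56392337), had 53.9 TMM-scaled CPM in squashed members and 254 in squashed 1% to 20% cells, and 45.4 and 285 in the control library (log2 -2.44, adjusted p = 4.15e-26). BIRC5, the chromosomal passenger survivin, fell by 2.38 and PTTG1, the separase inhibitor securin, by 2.33. CCNB1, cyclin B1, fell by 2.05 and CDC20, an activator of the anaphase-promoting complex, by 2.03. The longer transcripts MKI67 and TOP2A fell less, by 0.63 and 0.53. HMGN2, a nucleosome-binding protein with many processed pseudogenes, fell by 2.18 and TK1, thymidine kinase, by 1.89. In cells called G2/M on thinned counts MKI67 and TOP2A were higher in members, by 0.78 and 0.80. The calls were made from the G1/S and G2/M lists, so the choice of cells partly sets the levels of cell cycle genes there.

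G2/M calls were fewer among members. At a fixed 1000 UMIs outside the MT- genes, 25.5% of 463 squashed members and 39.9% of 1773 squashed 1% to 20% cells were called G2/M, and 11.6% of 251 control members and 54.4% of 1773 control 1% to 20% cells. Unthinned, the shares were 29.5% and 50.7% in the squashed and 14.8% and 63.3% in the control library. G1 calls, which take cells without either signature, made up 47.9% and 36.4% in the squashed and 68.1% and 30.5% in the control library at 1000 UMIs. Free RNA was not estimated here and its part in these calls was not tested. Limited to cells called G2/M in both classes, 1259 of 7652 genes were still higher (16.5%) and 1158 lower (15.1%). The median of the G2/M list was -0.37 there, but that list also served to call the phase, so the choice of cells partly sets this value.

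Transcript length moved with the ratio. Genes with a canonical transcript of 500 to 1000 bases were higher in 41 of 520 cases and lower in 383 (median -0.83), and genes over 8000 bases were higher in 572 of 778 and lower in 23 (median 0.86), with intermediate classes in between. Within a length class some list medians lay apart from that of all genes and others did not, and none of these gaps was tested. Membrane and secreted protein genes of 4000 to 8000 bases had a median of 1.27, against 0.40 for all genes in that class. The 39 ribosomal protein genes of 500 to 1000 bases had a median of -1.06, against -0.83, and the 14 of 2000 to 4000 bases had -1.06, against -0.10. The short complex I genes lay close to genes of like length, with -0.89 against -0.83 at 500 to 1000 bases (20 genes) and -1.04 against -0.98 under 500 bases (5 genes). Mitochondrial ribosomal protein genes of 500 to 1000 bases (24 genes) had -0.90 against -0.83. The 3 nuclear non-coding RNAs of 500 to 1000 bases (FTX, MEG3 and KCNQ1OT1) had a median of 2.58 against -0.83. Their class rests on the transcript annotated as canonical, and their loci are far longer. FTX runs from 73940435 to 74293574 on chromosome X, and KCNQ1OT1 from 2597308 to 2700003 on chromosome 11.

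Along the MT- share the levels changed over a wide range in both libraries, with the control library nearly level between 15% and 25% for these 3 measures, and they had begun to change below 20%. In successive ranges of 1% to 5%, 15% to 20%, 20% to 25% and 30% to 50%, MALAT1 had 2799, 22683, 32069 and 116544 CPM in the squashed library and 2173, 20475, 24505 and 99442 CPM in the control library. The summed CPM of the ribosomal protein genes was 408458, 321921, 307023 and 188516 in the squashed library over the same ranges, and 355056, 301404, 304216 and 178961 in the control library. Membrane and secreted protein genes summed to 2542, 5088, 6664 and 10750.1 CPM in the squashed library and to 2441, 5523, 5729 and 13426 CPM in the control library. Over 50% the libraries parted, with MALAT1 at 81988 CPM in squashed cells and 115665 CPM in control cells and ribosomal proteins at 189961 and 117607 CPM.

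**Figure D3:**
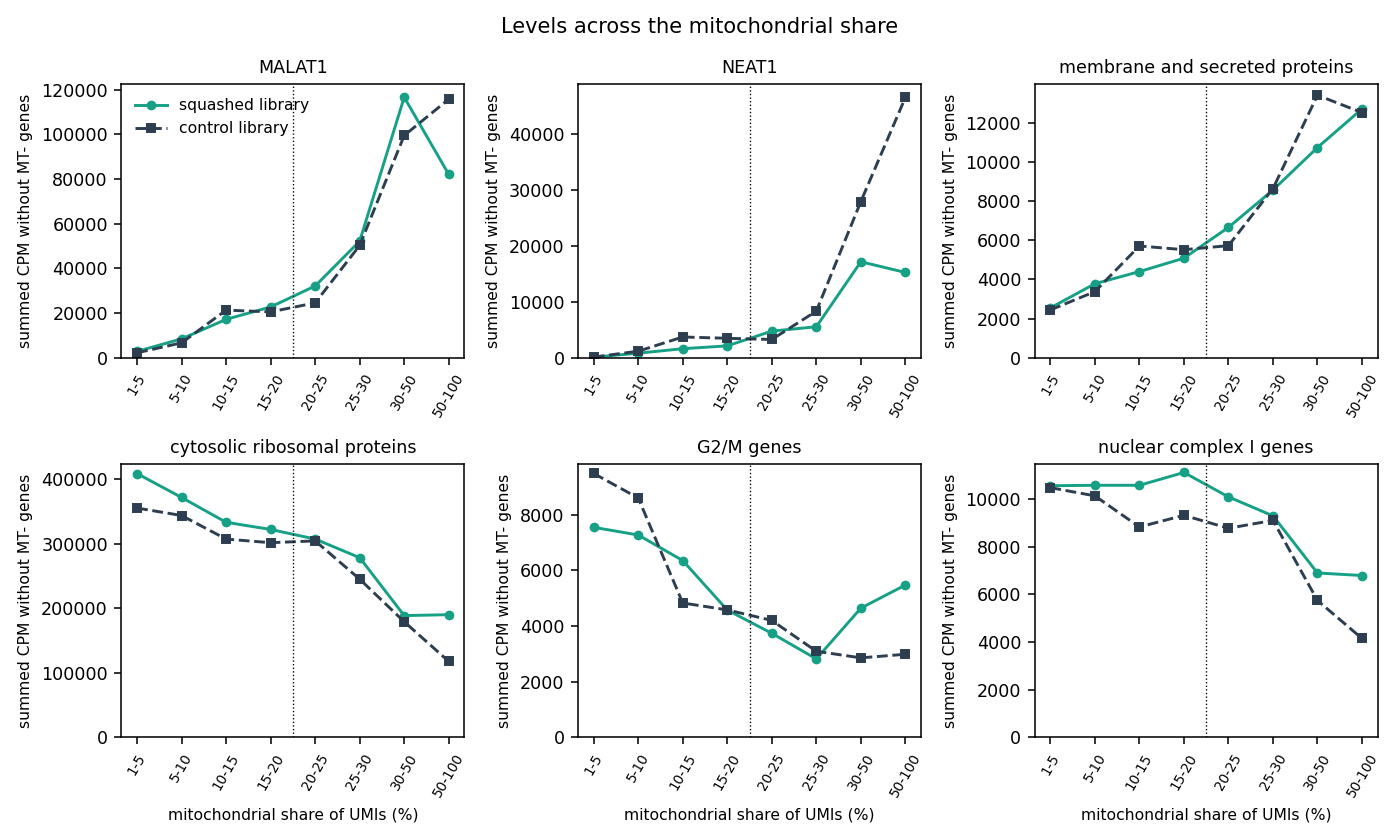
Summed CPM, scaled without mitochondrial genes, of MALAT1, NEAT1 and 4 gene lists in cells grouped by mitochondrial share (%, x axis) in the squashed (circles) and control (squares) libraries; each point is 1 sum over cells and the dotted line is the 20% threshold. At 30% to 50%, MALAT1 reaches 116544 CPM in squashed cells and 99442 CPM in control cells, and ribosomal proteins are at 188516 and 178961 CPM there.

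Members were not uniform. The share of UMIs outside the MT- genes that fell on MALAT1 and NEAT1 had 2 peaks among squashed members, as its histogram shows. Control members were most frequent at 5% to 20% (104 of 270 cells). Of the other control members 40 lay under 0.5%, 32 at 0.5% to 2%, 48 at 2% to 5% and 46 at 20% or more. Under 0.5% lay 234 of 519 squashed members (45.1%) and 40 of 270 control members (14.8%), and at 5% or more lay 203 (39.1%) and 150 (55.6%). Among 1% to 20% cells 70.2% of the squashed and 70.4% of the control library lay under 0.5%, and 3.60% and 5.86% lay at 5% or more. Both limits were chosen after the values were seen, and 30 squashed and 21 control members lay between 4% and 6%.

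**Figure D4:**
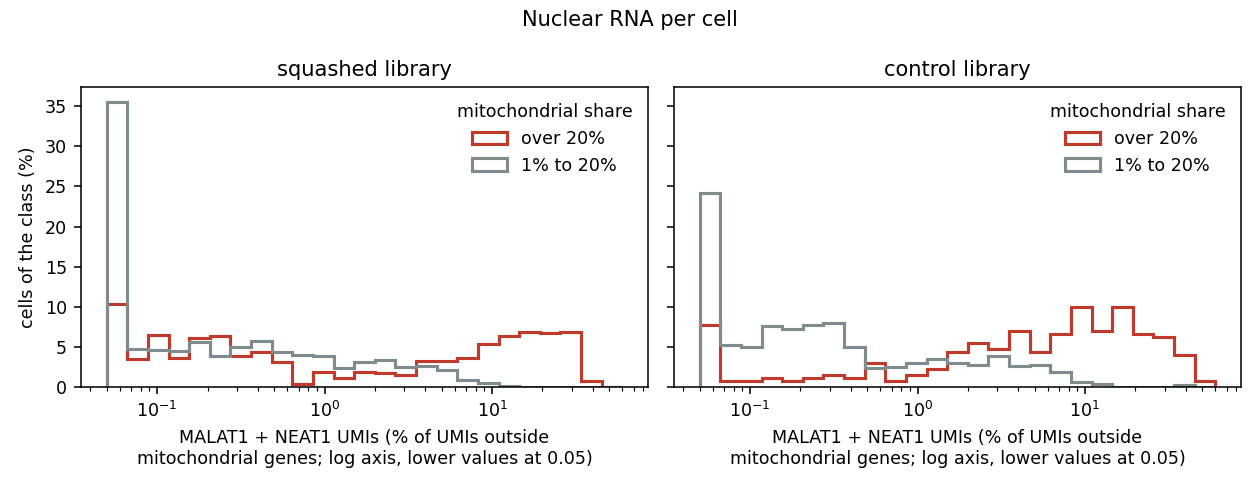
Histograms of the share of UMIs outside mitochondrial genes on MALAT1 and NEAT1 (%, log axis, values below 0.05 drawn at 0.05) in over 20% (red) and 1% to 20% (grey) cells, as a percentage of the cells of each class, for the squashed (left) and control (right) library. At 5% or more lie 39.1% of squashed and 55.6% of control members, against 3.60% and 5.86% of the 1% to 20% cells.

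Members rich and poor in nuclear RNA differed in depth and in the makeup of their other RNA. Those at 5% or more had a median of 13.6% of their UMIs outside the MT- genes on ribosomal proteins in the squashed and 11.2% in the control library, whereas those under 0.5% had 33.8% and 32.8%. Their median depth outside the MT- genes was 3161 and 2574 UMIs, against 1262 and 1772 UMIs for those under 0.5%. The membrane and secreted protein genes took 1.08% and 1.12% in the rich members and 0.725% and 0.535% in the poor ones, against 0.325% and 0.294% in all 1% to 20% cells.

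Members poor in nuclear RNA still differed from 1% to 20% cells that were equally poor in it. Of 5766 genes tested, 214 (3.71%) were higher and 110 (1.91%) lower in edgeR, a smaller comparison in which the control library gave 40 members. Membrane and secreted protein genes were higher in 26 of 40 cases and lower in none, with a median log2 ratio of 1.48. FN1 had 299 TMM-scaled CPM in squashed and 209 in control members, against 31.6 and 24.9 in the 1% to 20% cells (log2 3.16, adjusted p = 6e-05). PAPPA, a secreted metalloprotease, had 993 and 340.4, against 153 and 64.1 (log2 2.57), and CPD, a membrane-bound carboxypeptidase, rose by 2.83. Ribosomal proteins fell in 17 of 85 cases (median -0.35) and G2/M genes in 13 of 52 (median -0.74), and no complex I gene was called.

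Members rich in nuclear RNA, set against the 64 squashed and 104 control cells of 1% to 20% that were also rich in it, gave 1609 higher (18.4%) and 1866 lower (21.3%) of 8751 genes. Ribosomal proteins fell in 81 of 85 cases (median -1.29), complex I genes in 33 of 37 and membrane and secreted protein genes rose in 20 of 41 and fell in 3. The G2/M list turned round in this comparison, with 26 of 39 genes higher and 2 lower (median 1.05). G2/M genes took a median of 0.138% (squashed) and 0.107% (control) of UMIs outside the MT- genes in these comparison cells. Rich members had 0.216% and 0.115%, and all 1% to 20% cells had 0.436% and 0.772%. MKI67 rose by 3.61 and TOP2A by 2.37, and AURKA rose by 0.96 (adjusted p = 0.0269).

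Squashed members were then set against control members, to see whether the treatment labels separate cells within the class. This compares 1 library with 1 library, without a test, and each interval covers counting error only. Of 6634 genes with at least 20 CPM in either sum, 245 (3.69%) were at least 2-fold higher and 302 (4.55%) at least 2-fold lower in squashed members. In the 1% to 20% cells the counts were 45 (0.983%) and 237 (5.17%) of 4580 genes. Of genes measured in both classes, 125 were 2-fold lower in both, 58.1% of those in members and 56.1% of those in the other cells, and 30 were 2-fold higher in both, 26.8% and 71.4%.

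Genes of the actin and adhesion machinery were among those higher in squashed members. CCN2, a secreted matricellular protein and YAP target, had 55.5 CPM in squashed members (83 UMIs) and 8.79 in control members (14 UMIs), a log2 ratio of 2.62 (1.83 to 3.59). Its ratio was 1.09 (-0.14 to 2.75) when cells were thinned to 1000 UMIs, on 25 and 6 UMIs, and 1.29 (0.13 to 2.80) among members over 50%. In the 1% to 20% cells it had 6.89 and 5.90 CPM (log2 0.22). FLNA, the actin crosslinker filamin A, had 142 CPM in squashed and 57.8 in control members (log2 1.30, 0.94 to 1.67), against 35.9 and 56.5 CPM in the 1% to 20% cells (log2 -0.65). MYLK, the myosin light chain kinase, had a log2 ratio of 1.83 in members and 0.27 in the other cells, the collagen chain COL4A2 had 1.50 and 0.11, and COL5A1 had 1.42 and 0.01. Of 20 measured genes of the actin list 5 were at least 2-fold higher and none 2-fold lower (median 0.62, against -0.15 for the same genes in the 1% to 20% cells). That median was positive in the alternative selections of members, between 0.29 and 0.83. The difference between members and other cells was not tested. FLNA, MYLK, COL4A2 and COL5A1 were named for the largest differences of this kind. The membrane and secreted protein list had a median of 0.21 in all members, -0.12 in those over 30% and -0.06 in those over 50%. The YAP/TEAD list had 0.34, 0.06 and 0.02.

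The transcription factors CEBPB and HES1 had the next highest ratios. CEBPB had 128 CPM in squashed and 20.7 in control members (log2 2.61, 2.09 to 3.21), against 37.1 and 13.5 CPM in the 1% to 20% cells. HES1 had 276 and 45.9 CPM in members (log2 2.58, 2.23 to 2.97), against 32.1 and 10.4 CPM. ROMO1, a small protein of the mitochondrial inner membrane, had 383 and 83.5 CPM in members (log2 2.19) and 515 and 189 CPM in the other cells. In both classes the squashed library was the higher one for these genes. The nuclear copy MTRNR2L8 had 603 and 113 CPM in members (log2 2.41).

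The lowest ratios were shared with the other cells. MRPL12, a mitochondrial ribosomal protein, had 7.35 CPM in squashed members (11 UMIs) and 76.6 in control members (122 UMIs), a log2 ratio of -3.32 (-4.42 to -2.49), and -3.57 in the 1% to 20% cells. DDT, the tautomerase related to MIF, had 20.7 and 180 CPM (log2 -3.10, against -2.92), and the keratin KRT18 had 648 and 2945 CPM (log2 -2.18, against -1.59). In the sums over all members, metallothioneins, which bind zinc and copper, departed from the other cells in the opposite sense to the actin genes. MT2A had 1461 CPM in squashed and 1090 in control members (log2 0.42), against 2796 and 1043 CPM in the 1% to 20% cells (log2 1.42). MT1X had 124 and 138 CPM in members (log2 -0.15), against 296 and 92.6 CPM (log2 1.67). These differences between the classes were not tested, and they varied with the members taken. The median of the measured metallothioneins was 0.42 in all members, 1.29 among those over 30% and 1.12 when thinned to 1000 UMIs. It was 1.85 among members under 0.5% MALAT1 and NEAT1 and -0.04 among those with at least 5%.

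The mitotic genes gave no stable order between squashed and control members. The G2/M list had a median log2 ratio of 0.34 over 45 measured genes, with 4 at least 2-fold higher and 1 at least 2-fold lower. It was 1.23 among members with at least 5% MALAT1 and NEAT1, -0.98 among those under 0.5% and -0.29 among those of 20% to 30% MT- UMIs. Complex I genes had a median of -0.01 and ribosomal proteins of -0.16, and these were 0.63 and 0.65 among members over 50%. Unfolded protein response genes were lower in squashed members, with a median of -0.45, 4 of 18 genes at least 2-fold lower and none 2-fold higher. The same genes had a median of -0.44 in the 1% to 20% cells.

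**Figure D5:**
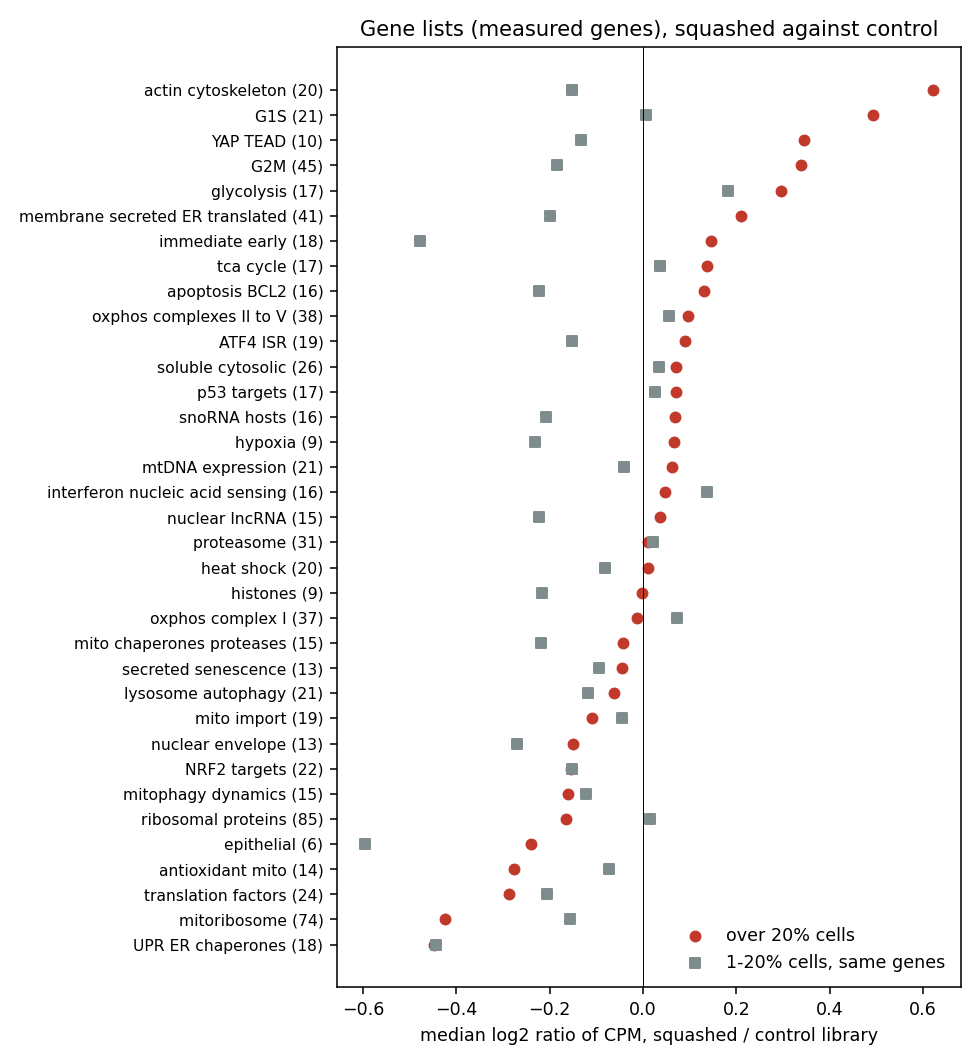
Median log2 ratio of CPM (squashed over control) of each gene list, with the number of measured genes in parentheses, in over 20% cells (red circles) and, for the same genes, in 1% to 20% cells (grey squares); 1 library per treatment, so no error between replicates exists. The actin list stands at 0.62 in members and -0.15 in the other cells, and the unfolded protein response list at -0.45 and -0.44.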

How the data were processed

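The 2 libraries were grouped by the treatment label. The files hold UMI counts per gene and barcode for 36601 genes, whole numbers as the authors deposited them, without normalization. Counting used Cell Ranger against GRCh38, version 4.0.0 per the file headers and 5.0.1 per the labels' design text; the submitters' processing notes also name R 4.3.2. The rule that called barcodes cells and the strand setting are not given in the sources used here.

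Cells with under 1% MT- UMIs were left out. UMIs were summed per library and class, scaled without MT- genes, and fitted with edgeR 4.0.16 in R 4.3.3 (quasi-likelihood test, TMM, library as block, Benjamini-Hochberg adjustment over all genes with a mean of at least 10 CPM). The sums held 1496072 (squashed members), 1592199 (control members), 20743322 (squashed 1% to 20%) and 24409924 (control 1% to 20%) UMIs, so members limit the precision. edgeR's test gives no standard error; ratios per library show the spread. Squashed against control used CPM of total UMIs, a prior count of 0.5 and exact binomial intervals at 95%. Phases were called with scanpy 1.11.5 on cells thinned to 1000 UMIs outside MT- genes, leaving out shallower cells (56 squashed and 19 control members, 5 and 2 others). Scrublet marked 1 squashed and 2 control members and 1 and 11 other cells, which is few, and doublets were kept. The libraries shared 4 barcodes, which were treated as separate cells. The fit was tested on simulated data. Transcript lengths and positions came from GENCODE 44, matched by gene identifier for 36366 genes.

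The members, the 42 gene lists and the tests were chosen with earlier results of these data known. Named genes were the 12 highest and 12 lowest ratios among called genes with a mean of at least 50 CPM, up to 3 of the largest per list, a fixed group of 11, and for squashed against control the 10 highest and lowest ratios and the 6 highest and lowest differences from the 1% to 20% cells. CD44, LAMC1 and FN1 in the main comparison, and the genes named from members poor in nuclear RNA, fall outside that rule and were chosen after their values were seen. Alternatives in tool, scaling, filters, cell choice and depth were run.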

Additional observations from a re-analysis of the deposited data

Results flagged for a closer look

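The median of the epithelial list had opposite signs in the 2 libraries. The median log2 ratio of members over 1% to 20% cells was -0.41 in the squashed and 0.18 in the control library, a difference of -0.59 over 7 genes, which was not tested. Single genes of the list, such as KRT80 (-0.41 and -2.24) and DSP (1.18 and 0.52), had the same sign in both.

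For several named genes the squashed library was higher than the control library in members and lower in the 1% to 20% cells, with counting intervals on both sides that leave out 0, and none of these differences was tested. FLNA, filamin A, had log2 ratios of 1.30 and -0.65, a difference of 1.95. CCN1, a matricellular YAP target, had 1.23 and -0.23, a difference of 1.45. The laminin chain LAMA3 had 1.10 and -0.30, a difference of 1.40. MTRNR2L12, a nuclear copy of mitochondrial 16S ribosomal RNA, had 0.83 and -0.23, a difference of 1.06. Among mitotic and S phase genes the differences were 1.58 for CDC20 (1.01 and -0.58), 0.99 for CCNB1 (0.61 and -0.38), 0.97 for PTTG1 (0.54 and -0.44) and 0.64 for TK1 (0.56 and -0.08). They were 1.18 for the non-coding KCNQ1OT1 (0.48 and -0.70), 1.16 for FBN1 (0.78 and -0.37), 1.08 for the receptor subunit GABRE (0.44 and -0.65) and 0.89 for COL7A1 (0.37 and -0.52).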

How the results depend on the processing

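The counts of 2270 genes higher and 2250 lower in members depended on the scaling, the tool, the filter on low genes and the cells taken. They were 3660 and 849 with total UMIs, 1494 and 1694 with DESeq2, 1432 and 1144 without the library block, 747 and 682 among genes of at least 50 CPM, 1259 and 1158 in G2/M calls, 2745 and 3713 without a filter on low genes, and, in selections chosen after seeing the data, 858 and 961 in members of 20% to 30%, 1454 and 1380 in G1 calls and 214 and 110 under 0.5% MALAT1 and NEAT1. The other alternatives stayed within 1.5 times. No test was possible within 1 library, and no paired analysis was possible beyond the library block because each treatment has 1 library. Of 132 named genes called, 32 were called under every alternative that gave a value. Their log2 ratios reversed with at least 5% MALAT1 and NEAT1 for AURKA (0.96), BIRC5 (1.09), PTTG1 (0.82), CCNB1 (0.81), CDC20 (1.12), CCNB2 (0.90), DLGAP5 (1.52), TK1 (0.22), MFN2 (0.17), HERPUD1 (-0.47), ZMAT3 (-0.20), HIST1H1D (0.31), DDX58 (-0.027), CXCL1 (-0.51), CXCL8 (-0.23), DSP (-0.21), MKI67 (3.61) and TOP2A (2.37). Against 1% to 10% cells HIST1H1D (2.01) and HIST1H4C (1.56) reversed, under 0.5% MALAT1 and NEAT1 HIST1H4C (1.57) and TOP2A (0.28), and in G2/M calls MKI67 (0.78) and TOP2A (0.80). At 2000 to 8000 UMIs P4HA2 (-0.080), HIST1H4C (0.22), MTRNR2L1 (-0.015), MTRNR2L8 (-0.088) and TOP2A (0.12) reversed, in G1 calls TXNRD2 (0.083) and P4HA2 (-0.047), and over 50% P4HA2 (-0.0092). Left with 1 library each, MT1X ranged from -1.82 (squashed) to 0.16 (control). The causes were not tested.

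Between squashed and control members the 245 genes at least 2-fold higher and 302 lower became 108 and 135 at 50 CPM, 513 and 649 at 2000 to 8000 UMIs, 415 and 1160 when thinned, 1127 and 926 in G2/M calls, 323 and 732 over 30%, 723 and 1356 over 50%, 241 and 534 at 20% to 30%, 450 and 1103 under 0.5% and 432 and 500 at 5% or more MALAT1 and NEAT1. Low genes pass 2-fold more often in the smaller sums. TRIML2 reversed under 0.5% (-0.90), CCN1 there (-0.56) and over 50% (-0.065), and UBE2C over 30% (0.65), at 2000 to 8000 UMIs (0.83), over 50% (0.58), in G1 calls (1.86) and at 5% or more (1.52).

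The share of members was 27.03% of squashed and 22.2% of control cells at a threshold of 15%, 18.3% and 9.51% at 25%, 16.8% and 8.27% at 30%, 30.5% and 19.7% without a depth filter and 19.3% and 11.7% with depth counted without MT- genes. G2/M calls at 2000 UMIs were 15.9% and 45.4% in squashed members and other squashed cells and 10.2% and 59.0% in the control library, and unthinned 29.5% and 50.7%, and 14.8% and 63.3%.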

Other observations

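Other lists that the comparison of members with 1% to 20% cells covered were mixed. The counts here and in the next paragraph stand beside 29.3% higher and 29% lower among all genes tested. Genes hosting small nucleolar RNAs fell in 10 of 16 cases and rose in 1 (median log2 -0.65), with SNHG5 down by 1.18. Mitochondrial and thioredoxin antioxidant genes fell in 10 of 15 (median -0.79), histone genes in 7 of 11 (median -0.62), led by H2AFZ at -1.69, and metallothioneins in 4 of 5 (median -0.83). The metallothionein median was -1.28 in the squashed and -0.26 in the control library, and no metallothionein was called without the library block. Lysosome and autophagy genes rose in 5 and fell in 5 of 22 (median 0.19), with PSAP, the precursor of saposins, up by 0.89. Of 13 secreted senescence factors 6 rose and 2 fell (median 0.38), with the chemokine CXCL2 up by 2.29, and of 11 hypoxia genes 2 rose and none fell (median 0.25), VEGFA by 1.35. Under scaling by total UMIs lysosome and autophagy genes had 13 higher and 0 lower calls (median 0.68), hosts of small nucleolar RNAs 4 and 4, histones 2 and 3, metallothioneins 1 and 1, hypoxia genes 7 and 0, senescence factors 10 and 0, and antioxidant genes 1 and 7. Of all genes tested, 47.2% were higher and 11% lower under that scaling.

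Actin cytoskeleton genes rose in 3 and fell in 9 of 20 cases (median -0.39), with the tropomyosin TPM3 down by 1.31. Nuclear envelope genes rose in 4 and fell in 6 of 15 (median -0.07). The giant nesprins SYNE2 and SYNE1, which tie the nucleus to the cytoskeleton, rose by 1.30 and 1.12, and the small chromatin-binding BANF1 fell by 1.54. Apoptosis genes rose in 4 and fell in 10 of 22 (median -0.33). The medians of the actin, nuclear envelope and apoptosis lists turned positive under scaling by total UMIs, to 0.10, 0.42 and 0.15.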
